A study of Mus musculus with 2 samples.

Results

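Transcripts of 10 surface antigens that are used to sort or stage mouse haematopoietic stem and progenitor cells (HSPCs) were measured in single bone marrow cells: Ly6a, Ly6e, Cd34, Cd48, Slamf1, Procr, Esam, Cd9, Cd27 and Cd93. The members were the genes with these symbols in the gene lists of both libraries, and all 10 were found among 27998 genes. Single-cell RNA sequencing (scRNA-seq) was carried out on LSK cells, the lineage-negative, Sca-1-positive, c-Kit-positive fraction of marrow from femur, tibia and hip of 3-month-old mice, with 1 WT and 1 cKO library. The labels give the genotype as Trmt6fl/fl for WT and Trmt6fl/fl, MX1-cre for cKO, whereas the methods of the study name Trmt6fl/+ Mx1-Cre beside Trmt6fl/fl Mx1-Cre animals, and its scheme of the scRNA-seq experiment names Trmt6+/+ Mx1-Cre controls and pIpC treatment. Which genotype the WT mice had, and whether they carried Cre, is not settled here. Mx1-Cre is driven by an interferon-inducible promoter that acts in many cell types, and pIpC is the agent used to induce it. The sources used here do not give the number of mice behind each library. With 1 library per genotype there was no test of genotype, and every interval below covers counting error only.

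Sorting antigens are proteins, and a transcript is only an indirect reading of them. Sca-1, the product of Ly6a, is itself part of the LSK gate, and its level on the surface is raised by interferon. CD150 (Slamf1) and CD48 are SLAM family receptors: stem cells are classically CD150+ and CD48-, and CD48 appears on multipotent and committed progenitors. CD34 is absent from most adult long-term stem cells and present on later progenitors, while EPCR (Procr) and ESAM mark the stem cell end of the LSK gate.

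The WT library held 8869 barcodes and 47991455 unique molecular identifiers (UMIs, counted molecules), and the cKO library held 9260 barcodes and 98323201 UMIs. The limits of the study and a doublet filter left 8147 cells in WT and 8479 in cKO, with medians of 4178 and 10083 UMIs per cell, a 2.41-fold difference. Each cell was therefore thinned at random to 2000 UMIs, which left 7948 WT and 8374 cKO cells and set aside 199 and 105 shallower ones. The 2 libraries shared 24 cell barcodes. Levels are given as CPM, the UMIs of a gene summed over the thinned cells of a library and scaled to a total of 1000000 UMIs. The neutrophil genes S100a8, S100a9, Ngp, Camp and Ltf, which sorted LSK cells should lack, summed to 3974 CPM in WT and 1.61 in cKO. Myeloid granule genes summed to 3815 and 636. Trmt6, the targeted gene, stood at 60.0 CPM in WT and 45.8 in cKO, and a 3′ count does not show the loss of an exon.

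Ly6a, Procr, Esam and Slamf1 were higher in the cKO library, and Cd27, Cd34, Cd48, Cd93 and Ly6e were lower. The log2 ratio of cKO over WT had an interval above 0 for those 4 members, below 0 for those 5, and spanning 0 for Cd9. Of the 9289 genes that reached 5 CPM in either library, 25.8% lay above and 38.7% below by the same rule, 64.5% in all, so a call beyond counting error was common at this depth. Of the antigens, 3 members, Ly6a, Procr and Esam, lay above by a log2 ratio of 1 or more, as did 2.62% of those genes. Cd27 alone lay below by that much, as did 5.69% of the genes. Among the 9289 genes ranked by ratio, Ly6a was number 84, Procr 141 and Esam 174 from the top, and Cd27 was number 442, Cd34 604 and Cd48 717 from the bottom. The median ratio of the members was -0.12, against -0.08 over all genes. Restricted to cells with no UMI of the 5 neutrophil genes (4883 in WT and 8351 in cKO), a set chosen after the data were seen, the ratios were 1.97 for Ly6a, 1.58 for Procr, 1.52 for Esam, -0.88 for Cd34, -0.92 for Cd48 and -1.07 for Cd27, as large or nearly so, and Cd9 lay above at 0.21. Thinned to 4000 UMIs instead, which kept 4323 WT and 8158 cKO cells, the ratios were 2.65 for Ly6a, 2.15 for Procr and 2.05 for Esam, and no member lay below by a log2 ratio of 1, with Cd27 at -0.90.

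**Figure D1:**
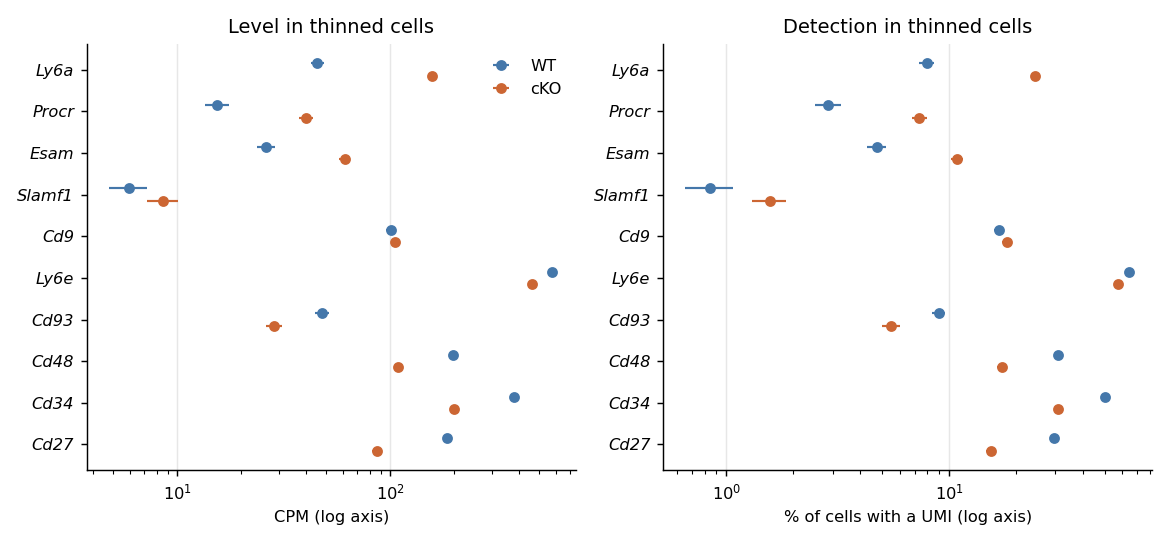
Level of each antigen in CPM (left, log axis) and percent of cells with a UMI (right, log axis) in 7948 WT and 8374 cKO cells thinned to 2000 UMIs, ordered by the ratio of cKO over WT. Points are the value in 1 library and bars the exact 95% interval of counting error, and the libraries cross over between Slamf1, at 5.91 and 8.54 CPM, and Ly6e, at 575 and 463.

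Ly6a, the Sca-1 gene at chr15:74994877-74998031 on the minus strand (GRCm38), was the member with the largest ratio. It stood at 45.5 CPM in WT and 157 in cKO (log2 ratio 1.79, 95% interval 1.67 to 1.91). A UMI was found in 7.95% of WT cells and 24.4% of cKO cells at the common depth, and in 14.4% and 64.7% before thinning. Cells with a Ly6a UMI also carried more of them, 1.14 per cell in WT and 1.29 in cKO. Both libraries are labelled as sorted on the Sca-1 protein. UMIs of 2 or more neutrophil genes were held by 647 WT and 2 cKO cells, of which 511 and 2 held exactly 2 of the genes. Those 647 WT cells held Ly6a in 10.5%, against 7.95% of all WT cells. Whether every cell lay within that gate was not tested and is not settled here. Ly6e, a relative in the same gene family that lies 35.0 kb away at chr15:74955051-74959905 (plus strand), did not share that direction. It stood at 575 CPM in WT and 463 in cKO (log2 ratio -0.31, -0.36 to -0.27), and was found in 64.0% and 57.6% of thinned cells.

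Interferon induces both of these genes, so 20 interferon response genes were read beside them. Of the 18 at 5 CPM or more, 2 lay above in cKO, 7 below and 9 spanned 0 (25.8% and 38.7% of all genes lay above and below), with a median log2 ratio of -0.19. Ifitm3, a membrane protein that blocks virus entry, was the sole one past a log2 ratio of 1, with 604 CPM in WT and 1220 in cKO. Their part in the Ly6a difference was not tested.

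Procr, the gene of the endothelial protein C receptor (chr2:155751117-155755471), gave 245 UMIs in WT and 675 in cKO. These are 15.4 and 40.3 CPM and a log2 ratio of 1.38 (1.17 to 1.60). The size depended on the random draw of UMIs: a second draw gave 1.09, and the expected value over all draws, computed after the data were seen, was 1.16, from 17.1 and 38.4 CPM. Procr was found in 2.87% of WT and 7.34% of cKO thinned cells, and in 5.62% and 25.4% of unthinned ones. Esam, which encodes an adhesion molecule of endothelium and stem cells (chr9:37528078-37538319), moved alongside it, with 26.0 CPM in WT and 61.0 in cKO (log2 ratio 1.23, 1.06 to 1.40). The share of cells with an Esam UMI was 4.73% in WT and 10.9% in cKO, and 8.36% and 34.9% before thinning. Both are also genes of endothelium, and the 5 endothelial markers summed to 5.35 and 3.82 CPM, with Cdh5 (VE-cadherin) at 0 UMIs in each library and no cell of either library holding UMIs of 2 of them. Their part in the Procr and Esam differences was not tested.

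The SLAM pair went in opposite directions. Slamf1 gave 94 UMIs in WT and 143 in cKO, or 5.91 and 8.54 CPM, a log2 ratio of 0.53 (0.14 to 0.92). At 1000 UMIs per cell its interval spanned 0 (0.26, -0.31 to 0.84). It was found in 0.843% of WT and 1.56% of cKO thinned cells, in 1.66% and 5.84% of unthinned cells, the sparsest of the 10 antigens. Cd48 stood at 197 CPM in WT and 109 in cKO (log2 ratio -0.85, -0.94 to -0.77), and the share of cells with a UMI was 30.8% and 17.3%. Without thinning the shares were 53.3% and 48.2%. The 2 genes are neighbours on the plus strand of chromosome 1, Cd48 at chr1:171682009-171705258 and Slamf1 at chr1:171767127-171801184, with 61.9 kb between them. The 250 bases before each RefSeq start (GRCm38.p6) are shown since these adjacent starts belong to the pair that separates stem cells from progenitors. Capitals in the Cd48 window mark TGTGGT, the core of a RUNX motif. Capitals in the Slamf1 window mark a core GATA motif spelled TGATAA.
Cd48, chr1:171681742-171681991, plus strand: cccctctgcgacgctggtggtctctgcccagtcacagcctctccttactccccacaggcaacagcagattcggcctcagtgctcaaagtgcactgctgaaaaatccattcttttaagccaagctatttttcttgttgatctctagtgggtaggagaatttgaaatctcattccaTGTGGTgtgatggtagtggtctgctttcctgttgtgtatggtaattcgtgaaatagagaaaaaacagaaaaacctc
Slamf1, chr1:171766882-171767131, plus strand: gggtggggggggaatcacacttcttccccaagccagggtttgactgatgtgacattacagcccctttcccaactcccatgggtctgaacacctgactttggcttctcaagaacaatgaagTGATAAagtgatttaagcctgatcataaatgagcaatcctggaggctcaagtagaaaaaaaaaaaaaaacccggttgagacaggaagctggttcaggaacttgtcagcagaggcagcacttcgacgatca
The Cd48 match lies 76 bases before the start and the Slamf1 match 130 bases before it, neither overlapping another. On either strand, the RUNX letters occur in 14.0% and these GATA letters in 7.94% of 32851 RefSeq windows of the same length, so each match describes letters and no bound factor.

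Cd34, Cd27 and Cd93 were lower in the cKO library. Cd34, a sialomucin of progenitors and vessels (chr1:194938819-194961279), stood at 380 CPM in WT and 200 in cKO (log2 ratio -0.93, -0.99 to -0.87). It was found in 50.3% of WT and 30.9% of cKO thinned cells, but in 72.8% and 73.4% of unthinned cells, where the cKO cells are deeper. Cd27, a TNF receptor family member that serves lymphoid priming and T cell costimulation (chr6:125232622-125237010, minus strand), stood at 185 and 86.3 CPM, a log2 ratio of -1.10 (-1.19 to -1.01). Its share of thinned cells was 29.6% in WT and 15.4% in cKO, against 51.8% and 50.9% without thinning. Cd93, a lectin-like receptor recognised by the AA4.1 antibody (chr2:148436640-148443563, minus strand), stood at 47.8 and 28.5 CPM, a log2 ratio of -0.75 (-0.92 to -0.58), in 8.98% and 5.51% of cells, and in 21.5% and 22.9% of unthinned cells. Cells that still held a Cd34 or Cd27 UMI held fewer of them in cKO, with 1.51 and 1.29 Cd34 UMIs and 1.25 and 1.12 Cd27 UMIs per positive cell in WT and cKO. The starts of Cd34 and Cd27, the members of this set with a RefSeq window, are shown for comparison with Cd48, with which they shared their direction.
Cd34, chr1:194938571-194938820, plus strand: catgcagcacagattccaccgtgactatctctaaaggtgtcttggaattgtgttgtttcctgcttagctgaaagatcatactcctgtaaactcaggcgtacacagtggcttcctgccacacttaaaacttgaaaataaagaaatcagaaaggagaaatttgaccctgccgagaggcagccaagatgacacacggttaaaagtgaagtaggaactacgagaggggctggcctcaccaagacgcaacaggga
Cd27, chr6:125237028-125237277, minus strand: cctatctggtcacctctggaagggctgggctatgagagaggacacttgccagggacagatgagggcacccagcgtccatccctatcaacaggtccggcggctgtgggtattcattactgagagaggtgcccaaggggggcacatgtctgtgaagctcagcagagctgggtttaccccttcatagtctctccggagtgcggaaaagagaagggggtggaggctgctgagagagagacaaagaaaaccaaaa
Neither window holds the motifs above or any of the other letters searched on either strand. These were the ETS letters CCGGAA, present in 12.0% of all windows. A further GATA spelling, AGATAA, was present in 9.99% of windows. The E-box was searched as CAGCTG and was present in 13.0%. No searched motif was thus common to the starts of Cd48, Cd34 and Cd27. RefSeq windows were matched for 6 of the 10 members, also for Procr and Cd9, and not for Ly6a, Ly6e, Esam and Cd93. The Procr window holds the E-box letters 34 bases before the start, and the Cd9 window holds them 25 bases and the ETS letters 231 bases before it.

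Cd9, a tetraspanin of megakaryocytes and stem cells (chr6:125460266-125494791, minus strand), was the member whose interval spanned 0. It stood at 101 CPM in WT and 105 in cKO (log2 ratio 0.07, -0.03 to 0.16), in 16.8% and 18.1% of thinned cells. Before thinning the shares were 29.2% and 57.8%. The call depended on the setting: Cd9 lay above 0 beyond counting error in 10 of the 13 alternatives that give an interval, with 0.16 (0.06 to 0.26) under TMM scaling, 0.11 (0.01 to 0.21) in a second draw and 0.21 (0.12 to 0.29) at 4000 UMIs. Cd9 lies 223 kb from Cd27 on chromosome 6. In each of the near pairs on chromosomes 1, 6 and 15, 1 gene was lower in cKO beyond counting error and its neighbour was not.

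**Figure D2:**
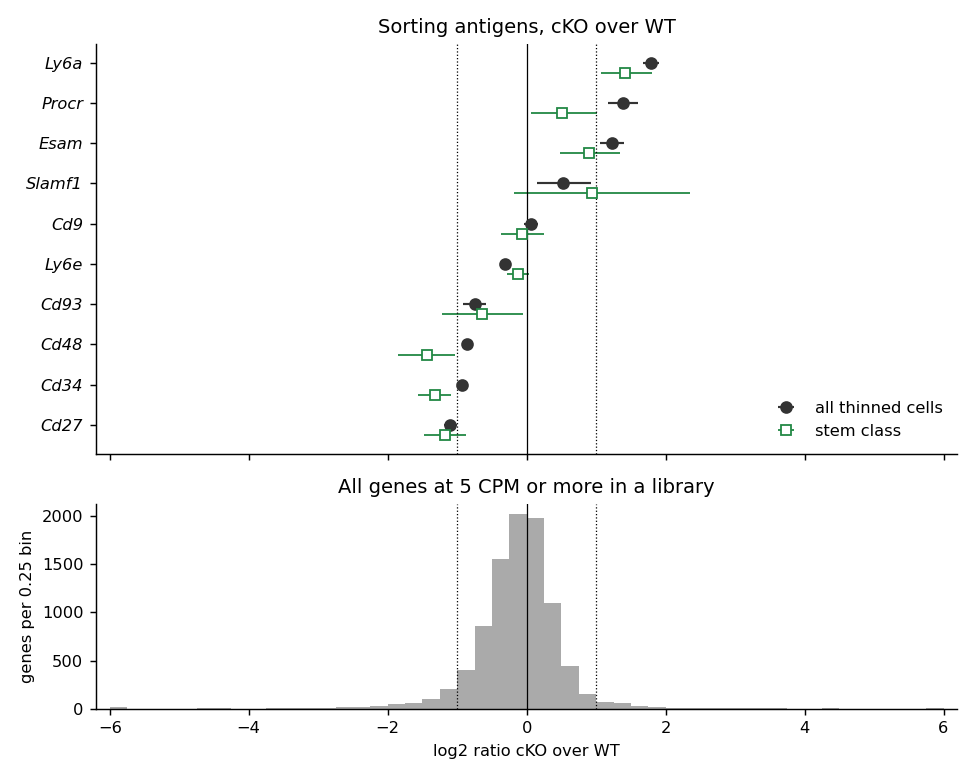
Log2 ratio of cKO over WT for the 10 antigens in all thinned cells (filled circles) and in cells with UMIs of 2 or more stem genes (open squares), with exact 95% intervals of counting error, above the number of genes per bin of 0.25 among 9289 genes (ratios beyond the axis sit in the end bins). Dotted lines mark a log2 ratio of 1 in either direction, and Procr moves from 1.38 to 0.51 within the stem gene cells.

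Other surface antigens of progenitors were read for comparison. Of 33 measured, 26 reached 5 CPM, and of these 6 lay above in cKO, 18 below and 2 spanned 0 (25.8% and 38.7% of all genes lay above and below), with a median log2 ratio of -0.44. Kit, the other gene of the LSK gate, was lower in cKO, at 75.1 CPM in WT and 23.9 in cKO (log2 ratio -1.65), opposite in direction to Ly6a. Flt3, a cytokine receptor of lymphoid-primed progenitors, stood at 104 and 35.3 (-1.56). The common leukocyte antigen Ptprc (CD45) had a ratio of -0.44. Past a log2 ratio of 1 on the lower side were also Fcgr3, Fcgr2b, Itga2b, Ly6c2 and Csf1r, which mark myeloid and megakaryocyte progenitors, and on the upper side Thy1 (5.16 and 12.8 CPM), Jam3 (1.01 and 7.34) and Ly6d (14.5 and 44.4). Ly6d is also carried by B lineage progenitors, whose 5 markers summed to 75.6 CPM in WT and 104 in cKO. Of these, Cd79a stood at 2.33 and 21.0 and Ebf1 at 3.96 and 22.2, while Cd79b had a log2 ratio of -0.47. Their part in the Ly6d difference was not tested. Csf1r had the lowest ratio of the list, -4.68, beside the myeloid granule genes above.

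Free RNA can place a UMI in a droplet whose cell does not express the gene, so detection was compared with cells in which little of it is expected. For Ly6a these are no negative control, since they come from a library sorted on its product. Cells with at least 20 summed UMIs of the granule genes Mpo, Elane, Prtn3 and Ctsg, and no other lineage gate, numbered 635 in WT, with a median of 11376 UMIs before thinning, and 24 in cKO, with 18212. At 2000 UMIs, these WT cells held Ly6a in 2.52%, Slamf1 in 0.472%, Procr in 0.315% and Esam in 0.157% of cells. For Ly6a, Procr and Esam those shares lie under the whole-library shares of 7.95%, 2.87% and 4.73%. The cells were deeper than the library median of 4178 UMIs, so thinning removed more of their UMIs, and unthinned shares were read too. These were 9.61% (7.43 to 12.2) for Ly6a, 1.73% (0.868 to 3.08) for Procr and 0.630% (0.172 to 1.60) for Esam, against 14.4%, 5.62% and 8.36% of all unthinned WT cells. For Slamf1 that share rests on 3 of 635 cells and cannot be told apart from the 0.843% of all WT cells, so Slamf1 detection in WT is not resolved from background. In cKO 1 of the 24 cells held Ly6a and 1 held Procr (0.105 to 21.1% for either), and none held Esam or Slamf1 (up to 14.2%). Those intervals cover the cKO shares of Procr, 7.34%, Esam, 10.9%, and Slamf1, 1.56%, so at the common depth these 3 are not resolved from background in cKO, while the Ly6a share of 24.4% lies above its interval. Without thinning, none of the 24 held Esam (up to 14.2%), under the 34.9% of all cKO cells, and 4 held Ly6a, 16.7% (4.74 to 37.4), under 64.7%. Procr, in 3 of the 24 (2.66 to 32.4%), and Slamf1, in none, stayed unresolved from 25.4% and 5.84%. Cd27 has megakaryocyte-gated cells (cells of that lineage gate and no other) as its comparison, with 38 of 244 WT cells and 4 of 55 cKO cells, 15.6% and 7.27%, at median depths of 4554 and 9468 UMIs. The WT share lies under the whole-library share of 29.6%, while the cKO interval of 2.02 to 17.6% covers the 15.4% of all cKO cells. Without thinning, Cd27 was found in 17 of the 55 cKO cells, 30.9% (19.1 to 44.8), under the 50.9% of all cKO cells. Erythroid-gated cells held Cd27 in 6 of 50 and 1 of 29. The T or NK gate named for Cd34 and Cd93 held 4 WT and 18 cKO cells, and Cd34 was found in 1 of them in each library and Cd93 in none. Ly6e, Cd48 and Cd9 are broadly expressed and have no such comparison.

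Cells were then grouped by lineage genes that are not among the antigens, each group being a range of marker detection and no cell type. Cells with UMIs of 2 or more of the stem genes Mllt3, Hlf, Mecom, Pdzk1ip1, Fgd5, Tcf15 and Hoxb5, and no other lineage gate, numbered 519 in WT (6.53%) and 841 in cKO (10.0%), with median depths of 2999 and 7551 UMIs before thinning. Among all cells at the stem cut, 472 WT and 650 cKO cells held exactly 2 of the genes, and 1819 and 2330 held 1. The genes of the gate themselves differed between the libraries, with Tcf15 at 8.24 CPM in WT and 34.8 in cKO, Mecom at 29.6 and 57.2, Mllt3 at 21.3 and 42.2, and Pdzk1ip1 at 66.8 and 48.7. Cells of the 2 libraries could thus enter the group through different genes, and the part of this in the ratios within it was not tested. Within this stem group Ly6a stood at 77.1 CPM in WT and 207 in cKO (log2 ratio 1.42, 1.07 to 1.80), in 13.3% and 31.3% of cells. Esam stood at 60.7 and 114 (0.90, 0.49 to 1.34), in 57 and 171 cells. Procr stood at 53.0 and 76.1 (0.51, 0.06 to 1.01), in 9.83% and 13.7% of cells, a smaller difference than over all cells.

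Cd48, Cd34 and Cd27 were lower in cKO in the stem group too. Cd48 stood at 131 CPM in WT and 48.2 in cKO (log2 ratio -1.44, -1.86 to -1.04), in 104 of 519 and 74 of 841 cells. Cd34 stood at 359 and 143 (-1.33, -1.57 to -1.09), in 48.4% and 24.4% of cells, and Cd27 at 216 and 95.7 (-1.17, -1.47 to -0.87), in 35.3% and 16.8%. In the 95 WT and 197 cKO cells with 3 or more stem genes, Cd34 stayed lower (-0.90, -1.51 to -0.28) and Ly6a higher (1.29, 0.52 to 2.23), while Cd48 (-0.55, -1.86 to 0.88), Cd27 (-0.67), Procr (0.57) and Esam (0.37) spanned 0. Cd9 was lower there (-0.89, -1.60 to -0.16), and Slamf1 turned to -1.26 on 7 and 6 UMIs, an interval that spanned 0. Slamf1 had 8 and 26 UMIs in the stem group and an interval of -0.18 to 2.36. Ly6e (-0.12) and Cd9 (-0.07) spanned 0, and Cd93 stayed lower at -0.64. In cells of no gate, 5952 in WT and 7315 in cKO, the ratios of Ly6a (1.67), Procr (1.37), Esam (1.08), Cd34 (-0.95), Cd48 (-0.85) and Cd27 (-1.19) were close to those of the whole libraries, as these cells make up 74.9% and 87.4% of them.

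Ly6a was also higher in cKO outside the stem group. In lymphoid-gated cells, 489 in WT and 103 in cKO, it stood at 41.9 and 131 CPM (log2 ratio 1.65), and in megakaryocyte-gated cells, 244 and 55, at 18.4 and 127 (2.76). Among all cells at the megakaryocyte gate, 203 of 290 in WT and 57 of 62 in cKO held exactly 2 of its genes. With 3 or more genes, Ly6a was found in 3 of 43 WT and 2 of 6 cKO lymphoid-gated cells, and in 0 of 87 and 0 of 5 megakaryocyte-gated cells. Cd34 and Cd48 were lower in the lymphoid group, at -1.21 and -0.53. In the megakaryocyte group their ratios were on the other side of 0 with intervals that spanned it, 0.69 (-0.17 to 1.45) for Cd34 and 1.12 (-0.04 to 2.14) for Cd48, as was Cd48 in the erythroid group (1.29, -0.02 to 2.72). Cd9 was at its highest in megakaryocyte-gated WT cells, 402 CPM in 53.3% of cells, against 200 in 29.1% of the cKO cells, a log2 ratio of -0.98 (-1.71 to -0.37). With 3 or more genes of that gate the difference was not seen. Cd9 was then found in 57 of 87 WT and 3 of 5 cKO cells (0.02, -1.77 to 1.16). Myeloid-gated cells, 635 and 24, gave intervals that spanned 0 for all 10 antigens. The mix of groups differed between the libraries, and giving both the same mix of groups left the ratios of Ly6a at 1.64, Procr at 1.17, Esam at 1.04, Cd34 at -0.94, Cd48 at -0.76 and Cd27 at -1.16. Cells of no gate, 74.9% of WT and 87.4% of cKO cells, carry most of that weight, so a difference in mix among them is not covered.

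**Figure D3:**
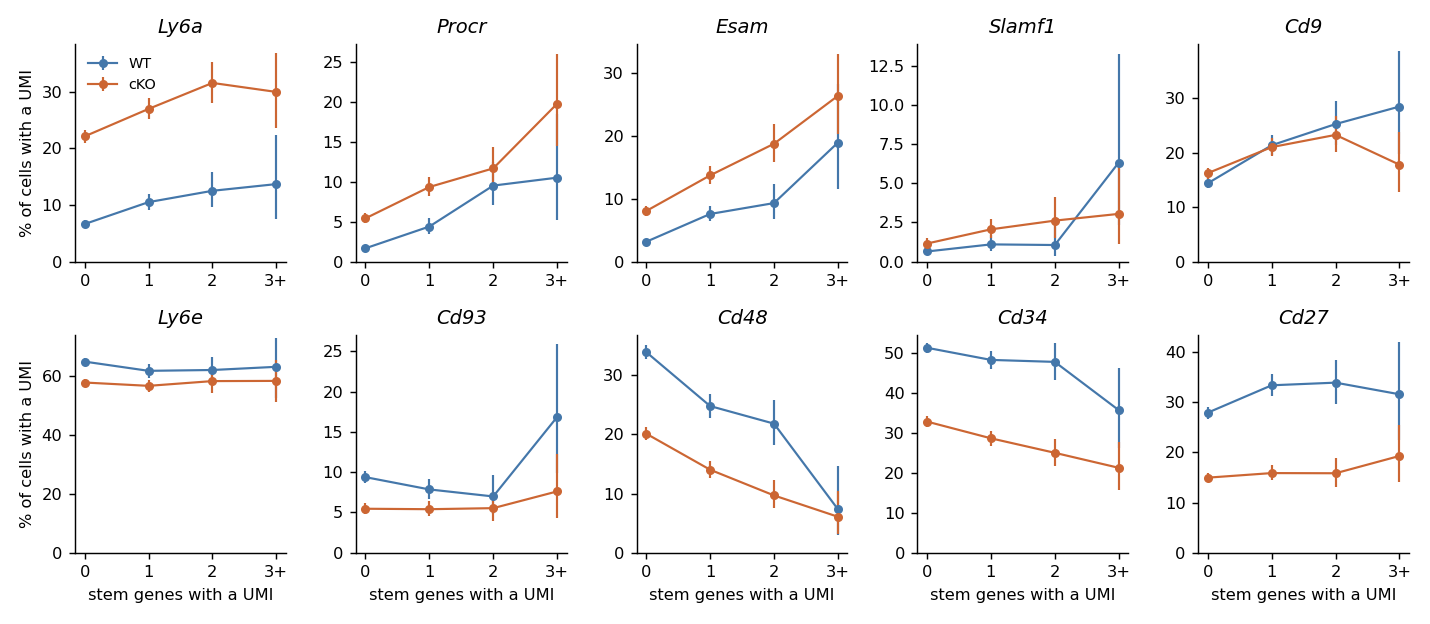
Percent of thinned cells with a UMI of each antigen, by the number of 7 stem genes with a UMI in the same cell (0, 1, 2, or 3 and more), in WT and cKO, each panel with its own axis from 0. Bars are exact 95% intervals, wide at 3 and more (95 WT and 197 cKO cells), and Cd48 runs from 33.9% to 7.37% in WT and from 20.1% to 6.09% in cKO.

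Detection followed the number of stem genes in a cell for some antigens and not for others. The share with Procr went from 1.67% of WT cells with no stem gene to 9.53% of cells with 2, and from 5.43% to 11.7% in cKO. Esam went from 3.16% to 9.32% in WT and from 8.06% to 18.8% in cKO. The share with Cd9 went from 14.4% to 25.2% in WT and from 16.2% to 23.2% in cKO. That of Slamf1 went from 0.647% to 1.06% in WT, on 36 and 5 cells, and from 1.15% to 2.62% in cKO. Cd48 ran the other way, from 33.9% to 21.8% in WT and from 20.1% to 9.69% in cKO. Cd34 went from 51.4% to 47.9% in WT, with intervals that overlapped, and from 32.9% to 25.1% in cKO. Cd27, lower in cKO like these 2, rose with stem genes in WT, from 27.9% to 33.9%, and was found in 778 of 5197 cells with none and 103 of 650 with 2 in cKO. Ly6e stayed between 61.8% and 64.9% in WT and between 56.7% and 58.4% in cKO. The WT and cKO curves of Ly6a were apart at every number of stem genes, at 6.63% and 22.1% with none and 13.7% and 29.9% with 3 or more. Genes within a cell share its depth, which thinning set equal.

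Co-detection asks whether 2 antigens were found in the same cell more or less often than the product of their shares, within 1 library. Of the 45 pairs, 8 exceeded the product in WT and 8 in cKO with an interval that excluded 1, 6 fell under it in WT and 5 in cKO, and 27 and 30 spanned 1. The others had a product of under 10 cells and are given by counts. In all, 7 pairs were over in both libraries: Ly6a with Procr, Ly6a with Esam, Procr with Esam, Cd34 with Cd48, Cd34 with Cd27, Slamf1 with Cd9 and Esam with Cd9. Cd34 with Esam, Cd34 with Cd9 and Cd48 with Esam were under in both. These lists depend on the random draw of UMIs. A second draw gave 10 pairs over in WT and 6 in cKO, and 4 and 7 under, so not all of those 7 pairs were over in both there. In the cells with no neutrophil UMI, 3 pairs were over in WT: Ly6a with Esam, Cd34 with Cd48 and Esam with Cd9. Procr with Esam, Ly6a with Procr and Slamf1 with Cd9 had products of under 10 cells there and passed to counts only, with ratios of 3.20, 2.54 and 2.07. Cd34 with Cd27 (1.07, 0.998 to 1.14) and Procr with Cd27 (1.31, 0.96 to 1.73) spanned 1. Of the pairs under in both libraries, Cd34 with Esam (0.89, 0.71 to 1.10) and Cd48 with Esam (0.78, 0.57 to 1.04) spanned 1 in those WT cells.

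Ly6a, Procr and Esam were found together in pairs more often than their shares give. Procr and Esam were both found in 26 WT cells where the product gives 10.8, a ratio of 2.41 (1.58 to 3.53), and in 96 cKO cells where it gives 67.1, a ratio of 1.43 (1.16 to 1.75). Ly6a with Procr had 33 cells against 18.1 in WT, a ratio of 1.82 (1.25 to 2.55), and 181 against 149.9 in cKO, 1.21 (1.04 to 1.39). Ly6a with Esam had 53 against 29.9 in WT (1.77) and 253 against 223 in cKO (1.14). Each ratio was nearer to 1 in cKO, where the shares of the single genes were higher, and the difference between the libraries was not tested. Slamf1, higher in cKO like these 3, was found with Ly6a in 4 WT cells against 5.33 and with Procr in 1 against 1.92, too few to compare. In the WT cells with no neutrophil UMI, Procr and Esam were both found in 15 cells against 4.69, and Ly6a and Procr in 22 against 8.67.

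Among the antigens lower in cKO, Cd34 with Cd48 had 1338 cells against 1232 in WT, a ratio of 1.09 (1.03 to 1.14), and 577 against 447 in cKO, 1.29 (1.19 to 1.40). Cd34 with Cd27 had ratios of 1.08 and 1.12. Across the 2 directions, Procr with Cd27 was over the product in WT, 91 cells against 67.4 (1.35, 1.09 to 1.66), and had a ratio of 1.12 (0.92 to 1.35) in cKO. Cd48 with Esam had 92 cells against 116 in WT (0.79) and 114 against 158 in cKO (0.72), and Cd34 with Esam had ratios of 0.83 and 0.81. Cd48 with Slamf1, the pair used to tell stem cells from progenitors, was the pair farthest under the product in WT, with 8 cells against 20.6, a ratio of 0.39 (0.17 to 0.76). In cKO it had 14 against 22.7, a ratio of 0.62 (0.34 to 1.04). Slamf1 was over the product with Cd9 in both libraries, 19 cells against 11.2 in WT (1.69) and 37 against 23.7 in cKO (1.56).

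**Figure D4:**
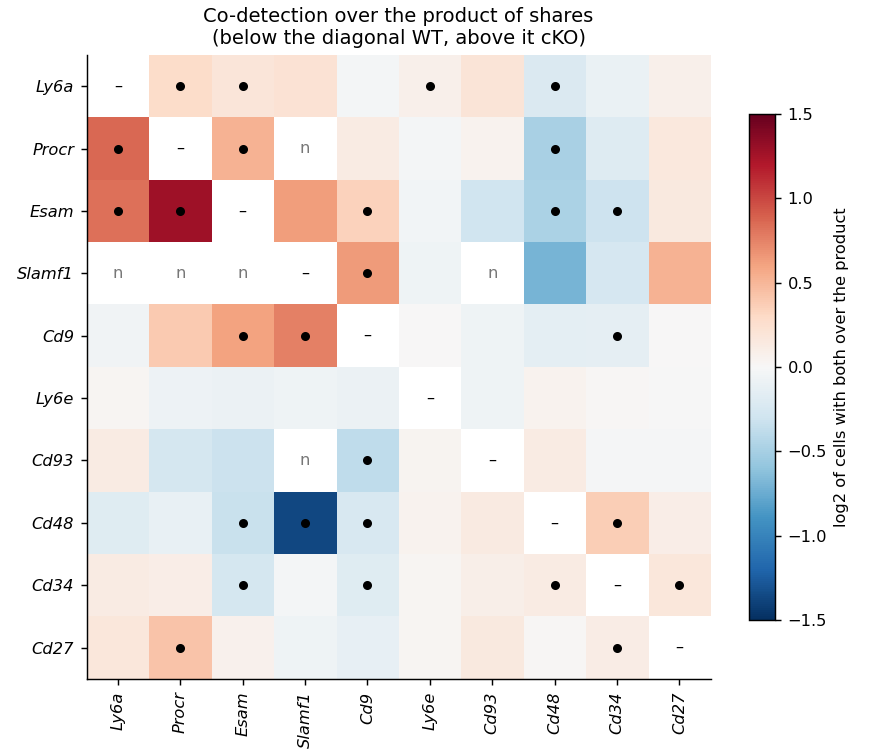
Co-detection of each pair of antigens as the log2 of the cells with UMIs of both over the product of the 2 shares, WT below the diagonal and cKO above it, on a colour scale from -1.5 to 1.5. Dots mark pairs whose 95% interval excludes the product, n marks pairs with a product of under 10 cells, and the darkest squares are Procr with Esam (ratio 2.41) and Cd48 with Slamf1 (0.39), both in WT.

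The study gates long-term stem cells as CD150+ CD48- Flk2- LSK cells, where Flk2 is the product of Flt3. Read on transcripts, Slamf1+ Cd48- Flt3- cells numbered 50 of 7948 in WT, 0.629% (0.467 to 0.829), and 115 of 8374 in cKO, 1.37% (1.14 to 1.65). They are most of the 67 WT and 131 cKO cells with a Slamf1 UMI. Slamf1 detection was not resolved from background in either library at this depth, and neither is this difference. Most cells had none of the 3 transcripts, 57.5% in WT and 76.2% in cKO, so a missing UMI is no negative cell in the sense of a flow gate. Cells with Cd48 and not Slamf1 made up 6.01% with Flt3 and 24.7% without it in WT, and 1.31% and 15.8% in cKO.

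The number of the 10 antigens found in a cell had a mean of 2.17 in WT and 1.89 in cKO and a median of 2 in each. No antigen was found in 6.22% of WT and 10.6% of cKO cells. At least 2 of Ly6a, Procr and Esam were found in 1.33% of WT and 5.61% of cKO cells, and all 3 in 3 and 30 cells. At least 2 of Cd34, Cd48 and Cd27 were found in 31.3% of WT and 12.9% of cKO cells, and all 3 in 5.42% and 1.10%. Cells with none of Cd34, Cd48 and Cd27 made up 26.0% in WT and 50.4% in cKO, and cells with none of Ly6a, Procr and Esam 85.8% and 63.4%.

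**Figure D5:**
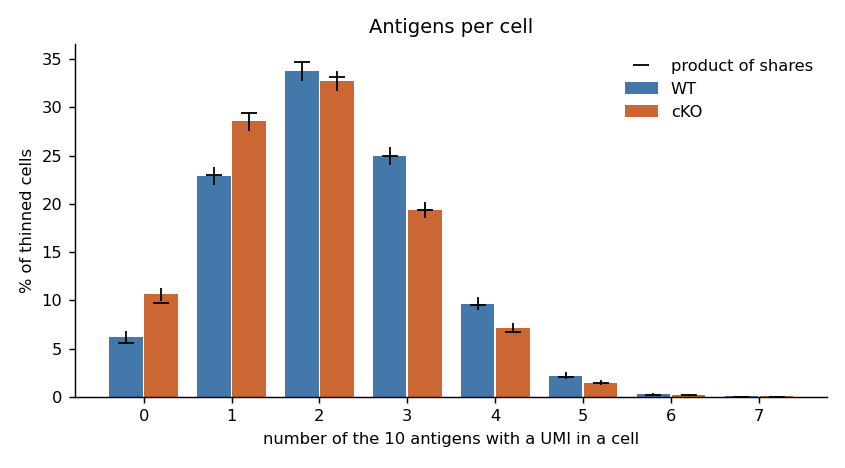
Percent of thinned WT and cKO cells with UMIs of 0 to 7 of the 10 antigens; bars start at 0, vertical lines are exact 95% intervals, and dashes give the product of the single shares. Cells with no antigen make up 6.22% in WT and 10.6% in cKO, and 4 WT and 3 cKO cells reached 7.

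Across thinned cells, the genes whose log2(UMIs + 1) correlated most with each antigen in both libraries were named where the lower of the 2 Pearson correlations reached 0.1, among 4704 genes at 20 CPM or more in both. Ly6a was closest to Ltb (0.12 in WT and 0.11 in cKO), a lymphotoxin subunit, and Shisa5 (0.12 and 0.11). Cd34 was closest to H2afy, the macroH2A histone gene (0.18 and 0.12), and Cd48 to Plac8 (0.15 and 0.12) and H2afy (0.14 and 0.11). The other 7 antigens had no gene at 0.1. These cells share a library and sparse counts, and correlations this low are given as a description.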

How the data were processed

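LSK cells of 1 WT and 1 cKO library were grouped by sample title. The authors deposited UMI counts for each gene and barcode from Cell Ranger 6.0.0 on GRCm38. The labels name kit v2 and the study kit v3. Cells were kept at more than 200 genes, fewer than 4000 (WT) or 4500 (cKO) genes, under 10% (WT) or 5% (cKO) mitochondrial and under 5% hemoglobin UMIs. Simulated doublets marked 616 and 672 of these cells, which were removed. Cells were thinned to 2000 UMIs without replacement. Levels are CPM of the sum over cells with exact Poisson intervals, shares have Clopper-Pearson intervals, and log2 ratios use 0.5 prior counts and an exact conditional binomial interval, all at 95%. Droplet counts within 1 library carry no error between mice. Members, marker lists and the rule for named genes (all members, and other listed genes past a log2 ratio of 1 at 5 CPM, with Kit, Flt3, Ptprc and Trmt6) were chosen with earlier results of these data known. Gene positions are from GENCODE M21 and promoters from RefSeq. Python 3.11, scipy 1.17.1 and edgeR 4.0.16 (TMM factor alone) were used, and the interval code was tested on simulated data.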

Additional observations from a re-analysis of the deposited data

How the results depend on the processing

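The direction of every member but Cd9 held under all 15 alternatives tried for the levels (other scalings, depths, draws, limits, cell sets), with log2 ratios of 1.42 to 2.65 for Ly6a, 0.51 to 2.15 for Procr, 0.90 to 2.05 for Esam, 0.26 to 0.94 for Slamf1, -0.44 to -0.12 for Ly6e, -1.33 to -0.78 for Cd34, -1.44 to -0.76 for Cd48, -1.19 to -0.90 for Cd27, -1.02 to -0.64 for Cd93 and -0.07 to 0.21 for Cd9. Leaving depth uneven (all UMIs) turned the difference in shares for Ly6e to 12.1, Cd34 to 0.616 and Cd93 to 1.44 percentage points, since the cKO library is deeper. Members below by a log2 ratio of 1 or more numbered 1, but 2 at 1000 UMIs, 0 at 4000, 2 under the same limits in both libraries and 3 in the stem group, where 1 in place of 3 lay above. The shares of all genes above and below given earlier are for all thinned cells at the common depth alone. Whether the counts of members under other settings, groups and gates differ from those of all genes there was not tested. Pairs over the product in WT numbered 3 at 1000 UMIs and 3 in cells with no neutrophil UMI (an alternative chosen after seeing the data, as were the stem group, the cells of no gate and the expected value over draws). In the latter, Procr with Esam, Ly6a with Procr and Slamf1 with Cd9 passed to counts only, as their products fell under 10 cells. In cKO, 5 pairs were over at 1000 UMIs, and 1 was under there and 8 at 4000. Stricter gates left 1 member above and 2 below (Cd34 and Cd9) in the stem group, where Slamf1 turned to -1.26, and without doublet removal 1, 3 and 2 members lay above in the myeloid, lymphoid and megakaryocyte groups; the cause was not tested. No paired analysis was possible because each genotype has 1 library, so no replicate could be left out either. Depth limits Slamf1, whose interval at 1000 UMIs was -0.31 to 0.84; 4 members still lay above there, since Cd9 then did.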

Other observations

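The rest of the SLAM receptor family, which shares the chromosome 1 locus of Slamf1 and Cd48, was read in the same thinned cells, a choice made after the data were seen. Cd244, the receptor for CD48, stood at 13.8 CPM in WT and 10.3 in cKO (log2 ratio -0.41, -0.71 to -0.12), and Cd84 at 31.2 and 23.9 (-0.38, -0.58 to -0.19). Ly9 stood at 14.5 and 17.1, with an interval that spanned 0. Slamf7 gave 2 UMIs in WT and 31 in cKO, and Slamf9 gave 1 and 56, while Slamf6 gave 38 and 23 (-0.79, -1.61 to -0.02) and Slamf8 gave 3 and 8, all under 5 CPM in each library.

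Within the mitotic gate (UMIs of 2 or more of Mki67, Top2a, Ccnb1, Cdk1, Cenpf and Birc5), 2409 WT and 2239 cKO cells, Ly6a, Procr and Esam had larger ratios than in the other cells. Ly6a stood at 18.5 and 117 CPM, a log2 ratio of 2.66, against 57.2 and 172 (1.58) outside the gate. Procr had ratios of 2.49 inside and 1.12 outside, and Esam 1.93 and 1.03. Cd34 had ratios of -0.79 inside and -0.98 outside, and Cd27 -1.09 and -1.11. Slamf1 had 0.53 (spanning 0) and 0.52, Cd48 -0.97 and -0.80, and Ly6e -0.58 and -0.18. The difference between the 2 groups of cells was not tested.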
